A study of Mus musculus with 20 samples.

Results

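The 36 interferon-stimulated genes described here were read in liver RNA of mice given interleukin-1β (IL-1β), a cytokine that starts inflammatory signaling, or saline. The members were the table rows whose gene symbol matched a list of known interferon targets, and all 36 were found among the 37681 genes of each table. The 10 mice were male, 12 weeks old and of the strain labelled C57/BL6 (C57/B6J in the methods of the study). The 5 treated mice, ILB_9577, ILB_9578, ILB_9579, ILB_9582 and ILB_9583, received 20 µg/kg IL-1β, and the 5 untreated controls, UNT_9574, UNT_9575, UNT_9576, UNT_9580 and UNT_9584, received saline. Livers were taken 4 hours later, so a single dose and a single time are available, in whole tissue and in 1 sex. Aliquots of each RNA were sequenced on Illumina and on Ion Torrent and each platform's reads were aligned by STAR, by GSNAP and by STAR plus Bowtie2, which gave 6 count tables. The Illumina table aligned with STAR is the main one, and the other 5 tables hold the same mice and are no further replicates.

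Interferons are secreted signals of infection. Type I interferons act through the receptor pair IFNAR1 and IFNAR2, and their signal reaches promoters at interferon-stimulated response elements (ISREs). Interferon-γ acts through IFNGR1 and IFNGR2, and its signal reaches promoters at gamma-activated sites (GAS). Hepatocytes and Kupffer cells both carry these receptors, and the induced genes encode sensors of foreign nucleic acid, enzymes that block viral RNA, and GTPases that attack the vacuoles of intracellular pathogens.

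Under IL-1β the interferon-stimulated genes split. In the main table, of the 36, 19 were higher, 3 were lower and 14 were not called (edgeR's quasi-likelihood test, Benjamini-Hochberg adjusted p below 0.05 over the 15578 genes tested). That is 52.8% of the members higher, against 22.7% of all tested genes, and 8.33% lower, against 22.9%. The median log2 fold change of the members was 0.49, and that of all tested genes was 0. At an absolute log2 fold change above 1, 6 members were higher, against 8.02% of tested genes, and 0 were lower, against 8.88%. Ifi47 and Tgtp1 rose by far the most among the members, at 17.9-fold and 9.1-fold. The RIG-I sensor gene Ddx58, its relative Dhx58 and Oasl1 fell. Ifit1, Ifit2, Ifit3, Rsad2, Mx1 and Usp18, which are among the genes used as a readout of type I interferon, were not called in any of the 6 tables. Mx1 had few reads in the main table, on average 10 with IL-1β and 18.6 with saline. Isg15, Stat2, Oas3, Oasl2 and Mx2, from the same list of interferon targets, were higher in all 6. The log2 fold change of Usp18 was 0.34 to 0.59 over the tables. In whole tissue, fewer cells of a type and less RNA per cell cannot be told apart.

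The promoters are shown first, because members with near-identical elements in front of them had unlike fold changes. The RefSeq promoter set (GRCm38.p6, 250 bases before to 50 after each annotated start) held 26 of the 36 members, and 10 had no entry (Usp18, Dhx58, Zbp1, Oas2, Mx1, Mx2, Iigp1, Parp9, Parp14 and Rtp4). An ISRE core (GAAANNGAAA, N for any base, searched on both strands) was present in 16 of the 26, against 3.44% of all 32851 promoters. A GAS core (TTCNNNGAA, the same on both strands) was present in 10 of the 26, against 8.3%. The NF-kB core (GGGNNNTTCC, both strands), which stands for the factor through which IL-1β is best known to act, was present in 4 of the 26, against 5.56%. Matches may overlap: the 3 ISRE matches of Isg15 run into each other, and the GAS match of Bst2 overlaps both an NF-kB and an ISRE match. A member counted if any of its annotated starts held a match, while the shares count each promoter (32851, of 27025 genes). Adar had 3 starts, with a GAS match at 1 of them. Ifit2 had 2 starts, with its GAS and NF-kB matches at 1 of them. A match is a string of letters and not a site known to be bound in liver.

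The stretches below lie upstream of the start, are written 5′ to 3′ on the gene's own strand, and carry every ISRE and GAS core of that upstream window in capitals. The first 4 belong to genes that were higher with IL-1β, the next 4 to genes that were not called, and the last to Ifi47, which held no match to any of the 3 motifs. The coordinates are those of GRCm38.p6.
Isg15, chr4:156200860-156200911, minus strand: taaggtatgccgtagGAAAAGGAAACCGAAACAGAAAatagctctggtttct
Irgm1, chr11:48871421-48871465, minus strand: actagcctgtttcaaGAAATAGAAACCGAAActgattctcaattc
Igtp, chr11:58199496-58199546, plus strand: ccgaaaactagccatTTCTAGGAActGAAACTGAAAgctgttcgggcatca
Tgtp1, chr11:48992299-48992349, minus strand: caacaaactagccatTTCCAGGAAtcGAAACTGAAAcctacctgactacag
Irgm2, chr11:58214887-58214937, plus strand: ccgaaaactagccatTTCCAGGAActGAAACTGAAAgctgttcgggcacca
Ifit1, chr19:34640770-34640828, plus strand: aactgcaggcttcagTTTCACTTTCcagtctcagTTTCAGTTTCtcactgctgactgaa
Ifit3, chr19:34583358-34583431, plus strand: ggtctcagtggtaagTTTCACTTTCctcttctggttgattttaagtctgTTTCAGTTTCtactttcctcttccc
Rsad2, chr12:26456548-26456587, minus strand: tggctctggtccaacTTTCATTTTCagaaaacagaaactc
Ifi47, chr11:49076527-49076586, plus strand: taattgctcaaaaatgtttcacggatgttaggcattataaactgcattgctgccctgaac

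The promoters of Igtp, Irgm2 and Tgtp1 share a GAS core that begins 11 bases before an ISRE core. Only 5 of the 32851 promoters held this arrangement (0.0152%), a spacing chosen after these promoters had been read, and the other two were Tgtp2 and Gm12185, relatives of Tgtp1. The Igtp and Irgm2 stretches were identical at 49 of 51 bases, and those of Irgm2 and Tgtp1 at 36 of 51. Their log2 fold changes were 0.69 for Igtp, -0.02 for Irgm2 and 3.19 for Tgtp1. Across the 26 genes, 9 of the 16 with an ISRE core were higher, 1 was lower and 6 were not called. Among the 10 without one, 5 were higher, 1 was lower and 4 were not called, and no test was made of this. Of all tested genes, 22.7% were higher and 22.9% lower, and of the 36 members 52.8% and 8.33%.

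**Figure D1:**
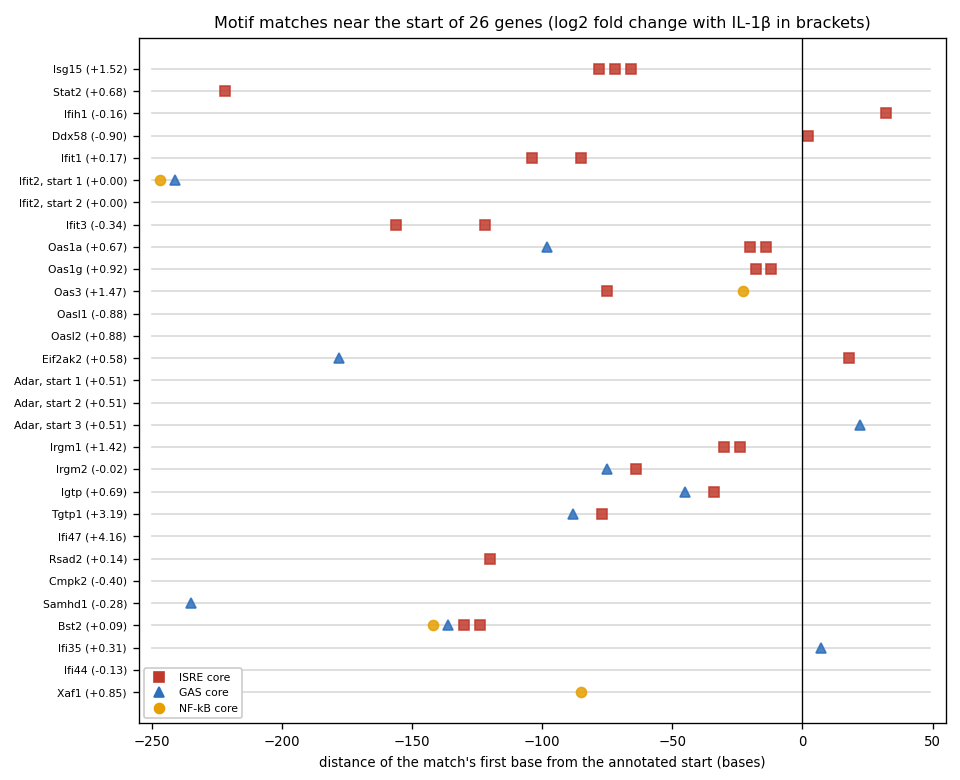
Positions of ISRE, GAS and NF-kB core matches from 250 bases before to 50 bases after the annotated start of the 26 members with a promoter entry (each row is 1 annotated start; the log2 fold change with IL-1β is in brackets). Igtp, Irgm2 and Tgtp1 show the same triangle and square 11 bases apart, and Ifi47 shows no match.

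Levels of the tested genes are given as CPM, that is counts relative to the size of the library, after TMM scaling, which corrects for differences in library composition. Total counts per library were 10568530 to 10655860 in the IL-1β mice and 10887640 to 11046256 in the saline mice of the main table, and 10568530 to 16439683 over all 6 tables. All 36 members passed the filter on low counts. All 9 genes of an IL-1 check list were higher in the main table. Among them were Lcn2, encoding an iron-scavenging protein (log2 fold change 9.90 ± 0.26, SE), and Saa3, an acute phase gene (9.56 ± 0.18). On Ion Torrent, 8 of the 9 genes were higher with each aligner. The list was chosen with earlier results of these data known, so it is no independent check of the response. Libraries of 1 mouse correlated least between platforms: deviations from the group mean over all well-counted genes correlated at 0.198 to 0.246 for UNT_9584 and at 0.534 to 0.718 for the other 9 mice.

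**Figure D2:**
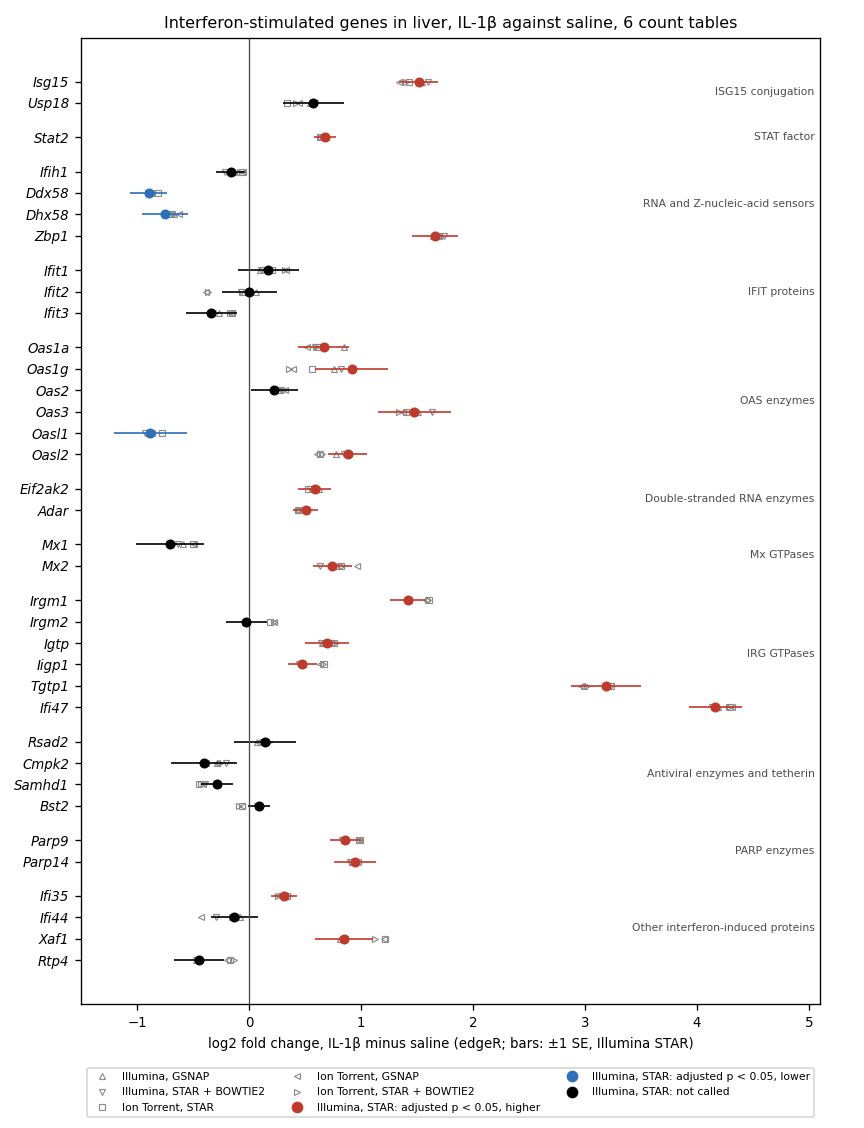
Log2 fold change, IL-1β minus saline, of the 36 members by role: large points with ±1 SE are the main table (red higher, blue lower, black not called) and small open symbols are the other 5 tables. Ifi47 (4.16) and Tgtp1 (3.19) lie far to the right, and the open symbols stay close to the large points for most genes.

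The IRG family, GTPases that are recruited to the vacuoles of intracellular parasites and bacteria, held the strongest responses. Of its 6 members 5 were higher and 1 was not called. Values per mouse are given in the order in which the mice are named above. Ifi47 (also IRG-47, ENSMUSG00000078920, chr11:48890089-48910476 on NCBIM37, 4 merged exons) was at 348, 253, 559, 487 and 308 CPM with IL-1β and at 31.4, 16.6, 24, 18 and 19 CPM with saline. Every treated mouse lay far above every control. Its log2 fold change was 4.16 ± 0.24 (adjusted p 6.2e-09), and 4.14 to 4.31 over the 6 tables. Ifi47 shares 111 exon bases with the olfactory receptor gene Olfr56 on the same strand, which had at most 4 reads in any library of the main table.

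Tgtp1 (chr11:48798829-48807674), a T-cell-specific GTPase gene of the same chromosome 11 family, was at 31.7, 16.7, 48.1, 52.6 and 28.4 CPM with IL-1β. The saline mice had 5.33, 3.66, 4.81, 1.78 and 3.81 CPM. The groups did not overlap, and the log2 fold change was 3.19 ± 0.31 (adjusted p 1.11e-06). Its neighbour Tgtp2 is 99.75% identical over 99.6% of the transcript, so how reads were shared between the pair is uncertain. Tgtp2 itself had 14 to 25 reads with IL-1β and 22 to 41 with saline (log2 fold change -0.48 ± 0.22, adjusted p 0.0931). In the Ion Torrent tables aligned with GSNAP and with STAR plus Bowtie2, Tgtp2 was instead higher, at 1.23 and 1.62, so the direction of Tgtp2 turned with the table while that of Tgtp1 did not (2.96 to 3.23 over the 6 tables).

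Irgm1 (chr11:48675470-48685185), a regulator of the other IRG proteins that protects host membranes, was at 152, 147, 230, 232 and 165 CPM with IL-1β. It was at 82.9, 74.4, 69.3, 52.4 and 68 CPM with saline. Again the groups were apart, with a log2 fold change of 1.42 ± 0.15 (adjusted p 3.31e-06). Igtp (chr11:58013058-58021093), also called Irgm3, was at 63, 71.4, 111, 106 and 64.8 CPM with IL-1β and at 46.3, 51.1, 66.6, 33.2 and 60.3 CPM with saline. The highest control lay within the range of the treated mice. The log2 fold change was 0.69 ± 0.20 (adjusted p 0.00921).

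Irgm2 (chr11:58028530-58036282), a further regulator, was at 61.4, 53, 112, 97.4 and 57.8 CPM with IL-1β and at 82.5, 78.1, 75.6, 67.1 and 84 CPM with saline. With IL-1β, 2 mice lay above all controls and 3 lay below all of them. The log2 fold change was -0.02 ± 0.18 (adjusted p 0.967), and it ran from -0.03 to 0.22 over the tables. Igtp and Irgm2 share 91.86% identity over 33.9% of the Igtp transcript.

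Iigp1, an effector that disrupts parasite vacuoles, was at 433, 532, 609, 621 and 525 CPM with IL-1β against 435, 333, 333, 376 and 480 CPM with saline. Here 1 treated mouse (ILB_9577) lay within the control range. The log2 fold change was 0.48 ± 0.13 (adjusted p 0.00727). Gm4951, which is 87.57% identical over 74.1% of the Iigp1 transcript, went the other way, with 637 to 909 reads with IL-1β and 1401 to 1813 with saline (log2 fold change -0.84 ± 0.12, adjusted p 4.39e-05).

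**Figure D3:**
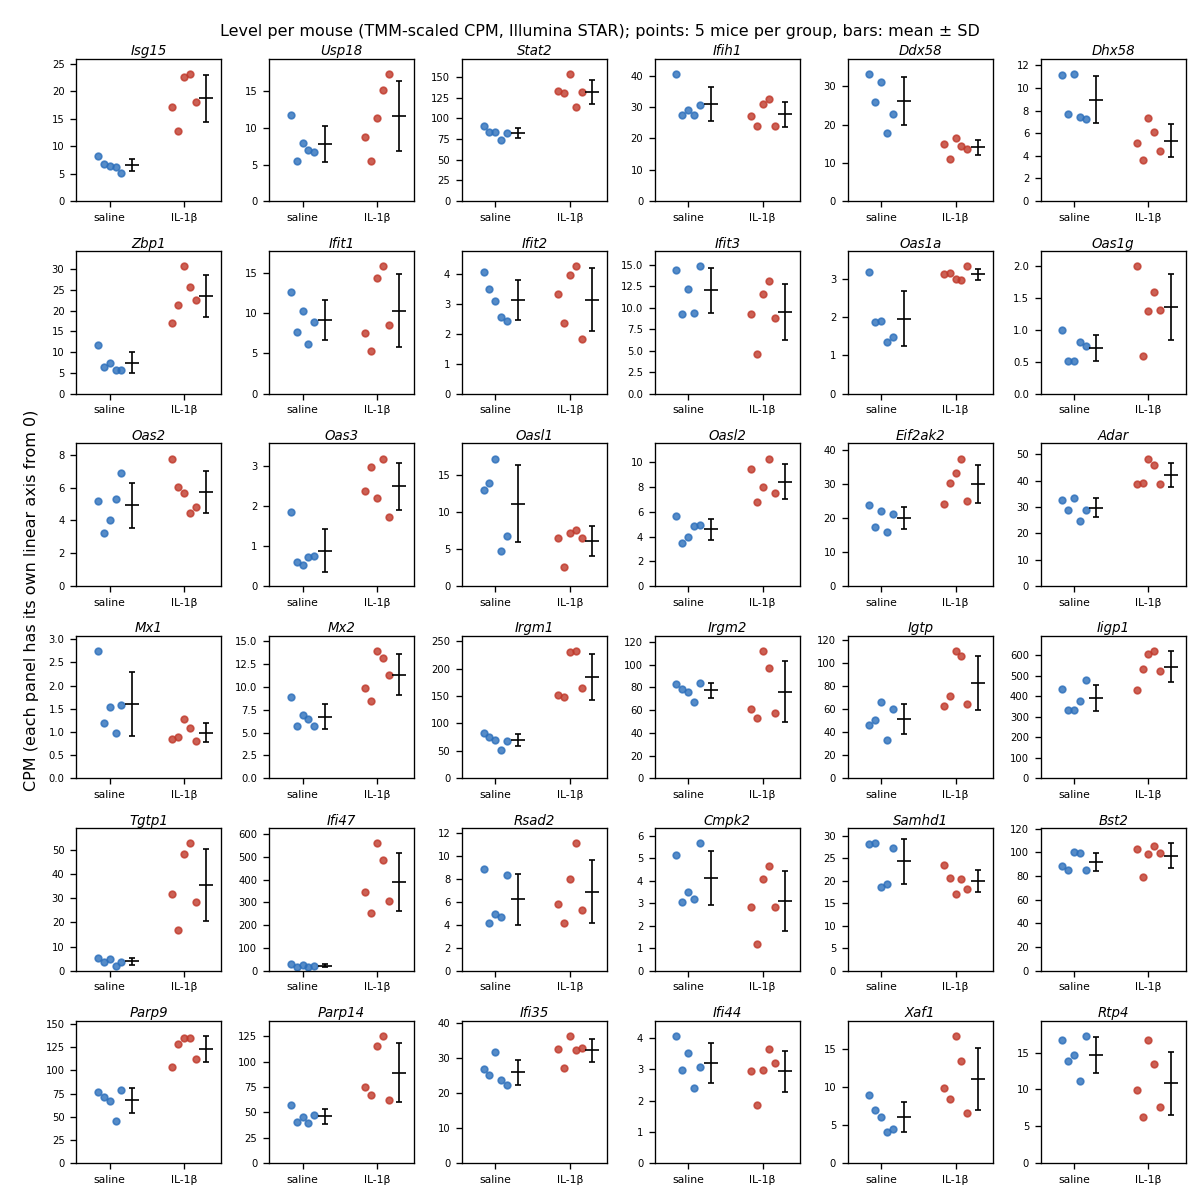
TMM-scaled CPM of each of the 36 members in the 5 saline (blue) and 5 IL-1β (red) mice of the main table, with mean ± SD beside them; each panel has its own linear axis from 0. Ifi47, Tgtp1, Irgm1, Isg15, Zbp1 and Stat2 show no overlap, and Irgm2, Ifit1 and Rsad2 show IL-1β mice on both sides of the saline range or across it.

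Stat2 encodes a STAT of the ISRE-binding complex. It was at 133, 130, 154, 113 and 131 CPM with IL-1β and at 90.5, 83.8, 83, 73.7 and 82 CPM with saline. All treated mice were above all controls, and the log2 fold change was 0.68 ± 0.10 (adjusted p 4.17e-05).

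Isg15 encodes a ubiquitin-like protein that is joined to other proteins. Its levels were 17.1, 12.8, 22.6, 23.2 and 18 CPM with IL-1β and 8.16, 6.73, 6.44, 6.22 and 5.11 CPM with saline. The groups were separate, and the log2 fold change was 1.52 ± 0.17 (adjusted p 5.2e-06). Usp18, the protease that removes ISG15 and dampens signaling at IFNAR2, was at 8.82, 5.52, 11.3, 15.2 and 17.4 CPM with IL-1β against 11.8, 5.45, 7.98, 7.02 and 6.78 CPM with saline. Its groups overlapped, and the log2 fold change of 0.57 ± 0.27 missed the threshold (adjusted p 0.102).

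Of the 4 sensor genes, 2 were lower, 1 was higher and 1 was not called. Ddx58, encoding RIG-I, the sensor of short double-stranded and triphosphate RNA, was at 15, 10.9, 16.4, 14.5 and 13.7 CPM with IL-1β and at 33.3, 26, 31.2, 17.9 and 22.8 CPM with saline. It was the only member whose treated mice all lay below the controls. Its log2 fold change was -0.90 ± 0.16 (adjusted p 0.00038).

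Dhx58, encoding LGP2, which tunes the related sensors, was at 5.12, 3.65, 7.35, 6.15 and 4.43 CPM with IL-1β. The saline mice had 11.2, 7.66, 11.2, 7.47 and 7.25 CPM, and the groups met only at their edges (log2 fold change -0.75 ± 0.20, adjusted p 0.00756). Ifih1, encoding MDA5, the sensor of long double-stranded RNA, overlapped between groups, with means of 27.7 ± 3.93 and 31 ± 5.49 CPM (SD, n = 5 each) and a log2 fold change of -0.16 ± 0.13 (adjusted p 0.344).

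Zbp1, the sensor of Z-form nucleic acid that can start necroptosis, went up. It was at 17, 21.3, 30.7, 25.8 and 22.6 CPM with IL-1β and at 11.7, 6.47, 7.47, 5.6 and 5.67 CPM with saline. No mouse crossed over, and the log2 fold change was 1.66 ± 0.21 (adjusted p 1.17e-05).

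The 3 IFIT genes, whose proteins bind foreign RNA ends and hold back translation, were not called. Ifit1 was at 7.49, 5.32, 14.4, 15.9 and 8.56 CPM with IL-1β and at 12.7, 7.66, 10.3, 6.22 and 8.92 CPM with saline. The treated mice spanned the whole control range and beyond it on both sides, with a log2 fold change of 0.17 ± 0.27 (adjusted p 0.656). Ifit2 was at 3.15 ± 1.04 against 3.13 ± 0.68 CPM (SD, n = 5 each), a log2 fold change of 0.00 ± 0.24. For Ifit3 the means were 9.52 ± 3.25 and 12 ± 2.65 CPM, and the log2 fold change was -0.34 ± 0.23 (adjusted p 0.257). I830012O16Rik, 97.84% identical to Ifit3 over 98.3% of its transcript, had 6 to 27 reads with IL-1β and 19 to 47 with saline (-0.82 ± 0.34, adjusted p 0.0592).

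The OAS enzymes make 2′-5′ oligoadenylate, the messenger that switches on RNase L. The 6 genes grouped here include the OAS-like genes Oasl1 and Oasl2, and counts do not show which of the proteins have this activity. Of the 6 genes, 4 were higher, 1 was lower and 1 was not called. Oas3 was at 2.37, 2.96, 2.18, 3.17 and 1.71 CPM with IL-1β and at 1.83, 0.596, 0.515, 0.711 and 0.743 CPM with saline. A single control, UNT_9574, reached into the treated range (log2 fold change 1.47 ± 0.32, adjusted p 0.00168). Oasl2, an OAS-like gene, was at 8.44 ± 1.43 against 4.58 ± 0.862 CPM, with no overlap (0.88 ± 0.17, adjusted p 0.000673).

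Oas1a and Oas1g are 96.83% identical over nearly their whole transcripts, so their reads may be divided between them. Oas1a was at 3.11 ± 0.144 against 1.95 ± 0.721 CPM (log2 fold change 0.67 ± 0.23, adjusted p 0.026) and was called in 2 of the 6 tables, but not without any 1 of 4 mice (adjusted p up to 0.0628). Oas1g was at 1.35 ± 0.512 against 0.714 ± 0.206 CPM (0.92 ± 0.33, adjusted p 0.0331) and was called in the 3 Illumina tables, but not without any 1 of 6 mice (up to 0.0992). Oas2 was not called in any table (0.23 ± 0.21, adjusted p 0.421).

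Oasl1, whose protein is known to hold back translation of Irf7, moved down. It was at 6.54, 2.56, 7.15, 7.54 and 6.54 CPM with IL-1β and at 13, 14, 17.3, 4.8 and 6.78 CPM with saline. The 5 controls fell into 3 high and 2 low mice, the latter within the treated range. The log2 fold change was -0.88 ± 0.33 (adjusted p 0.0381), and 6 of the 10 fits on 9 mice did not call it.

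Both genes of enzymes that act on double-stranded RNA were higher, without overlap of scaled levels in the main table. On Ion Torrent aligned with STAR, the groups of both genes overlapped. Eif2ak2, encoding PKR, the kinase that stops translation, was at 24.2, 30.4, 33.3, 37.6 and 25.2 CPM with IL-1β and at 23.9, 17.4, 22, 16 and 21.1 CPM with saline (log2 fold change 0.58 ± 0.14, adjusted p 0.00388). The lowest treated and the highest control were almost equal, and in unscaled counts the groups crossed (lowest treated 250 reads, highest control 287). Adar, the enzyme that edits adenosine to inosine, was at 42.2 ± 4.63 against 29.7 ± 3.53 CPM (0.51 ± 0.11, adjusted p 0.00163).

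Of the 2 genes of Mx GTPases, a family known for trapping viral nucleocapsids, 1 was higher and 1 was not called. Counts do not show whether working Mx protein was made in these mice. Mx2 was at 9.86, 8.48, 13.9, 13.1 and 11.3 CPM with IL-1β and at 8.91, 5.7, 6.95, 6.49 and 5.67 CPM with saline (log2 fold change 0.74 ± 0.17, adjusted p 0.00236), with the groups meeting at 1 control. Mx1 had 0.986 ± 0.202 against 1.61 ± 0.684 CPM (-0.71 ± 0.30, adjusted p 0.071), from few reads (on average 10 with IL-1β and 18.6 with saline). Where they align, over 27.2% of the Mx1 transcript, the pair is 94.78% identical.

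None of the 4 genes of antiviral enzymes and tetherin was called in the main table. Rsad2, encoding viperin, which makes a chain-terminating nucleotide, was at 5.79, 4.14, 8.04, 11.1 and 5.34 CPM with IL-1β and at 8.91, 4.17, 4.98, 4.71 and 8.36 CPM with saline. The groups covered much the same range (0.14 ± 0.28, adjusted p 0.724). Cmpk2, the nucleotide kinase gene beside it on chromosome 12, was at 3.12 ± 1.34 against 4.12 ± 1.2 CPM (-0.40 ± 0.29, adjusted p 0.296).

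Bst2, encoding tetherin, which holds budding virus at the cell surface, stood at 97.2 ± 10.3 against 91.6 ± 7.67 CPM (0.09 ± 0.10, adjusted p 0.517). Samhd1, whose protein depletes nucleotides, was at 20 ± 2.46 against 24.4 ± 4.96 CPM (-0.28 ± 0.14, adjusted p 0.123). Samhd1 was called lower in 4 of the other 5 tables, where its log2 fold changes reached -0.45.

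Parp9 and Parp14, ADP-ribosylation proteins that act on STAT signaling, were both higher, without overlap of scaled levels in the main table. Parp14 overlapped on Ion Torrent aligned with STAR. Parp9 was at 104, 128, 135, 135 and 112 CPM with IL-1β and at 77.2, 71.6, 66.7, 44.9 and 78.4 CPM with saline (log2 fold change 0.86 ± 0.14, adjusted p 0.00014). Its opposite-strand neighbour Dtx3l, with which it shares 458 exon bases, was also higher (0.40 ± 0.14, adjusted p 0.0338), and whether counting used strand is not stated. Parp14 was at 74.8, 67.6, 115, 126 and 62.1 CPM with IL-1β and at 57.9, 40.5, 45.8, 39.8 and 47.4 CPM with saline (0.94 ± 0.19, adjusted p 0.000745).

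Among the other induced genes, Xaf1, which counters the apoptosis inhibitor XIAP, was at 9.96, 8.48, 16.8, 13.5 and 6.54 CPM with IL-1β and at 8.99, 6.98, 6.09, 4.09 and 4.46 CPM with saline (0.85 ± 0.26, adjusted p 0.0146). Its groups overlapped at their ends. Ifi35, a partner of NMI, was at 32.1 ± 3.3 against 25.9 ± 3.56 CPM (0.31 ± 0.11, adjusted p 0.0371), and 8 of the 10 fits on 9 mice did not call it. Ifi44 (-0.13 ± 0.21, adjusted p 0.666) and Rtp4, a receptor-transporting protein gene (-0.44 ± 0.22, adjusted p 0.122), were not called.

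Per kilobase of merged exon, the only scale on which genes were set beside each other, Iigp1 (125 CPM per kb) and Bst2 (120 CPM per kb) were the highest members in saline liver. Igtp, Irgm2 and Stat2 followed at 25.5, 22.3 and 18.7 CPM per kb. The lowest levels were those of Oas3 (0.168), Oas1g (0.299), Mx1 (0.441) and Ifi44 (0.525 CPM per kb). With IL-1β, Ifi47 moved from 9.4 to 169 CPM per kb and stood beside Iigp1 (174 CPM per kb) and Bst2 (127 CPM per kb). Tgtp1 moved from 1.21 to 11.1 CPM per kb. These are levels of the main table, and the order of genes differed by platform. On Ion Torrent aligned with STAR, Bst2 was at 214 and Iigp1 at 83 CPM per kb in saline. There, with IL-1β, Ifi47, Bst2 and Iigp1 were at 210, 205 and 132 CPM per kb. Annotated exon length stands in for the transcript length, which these counts do not give.

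**Figure D4:**
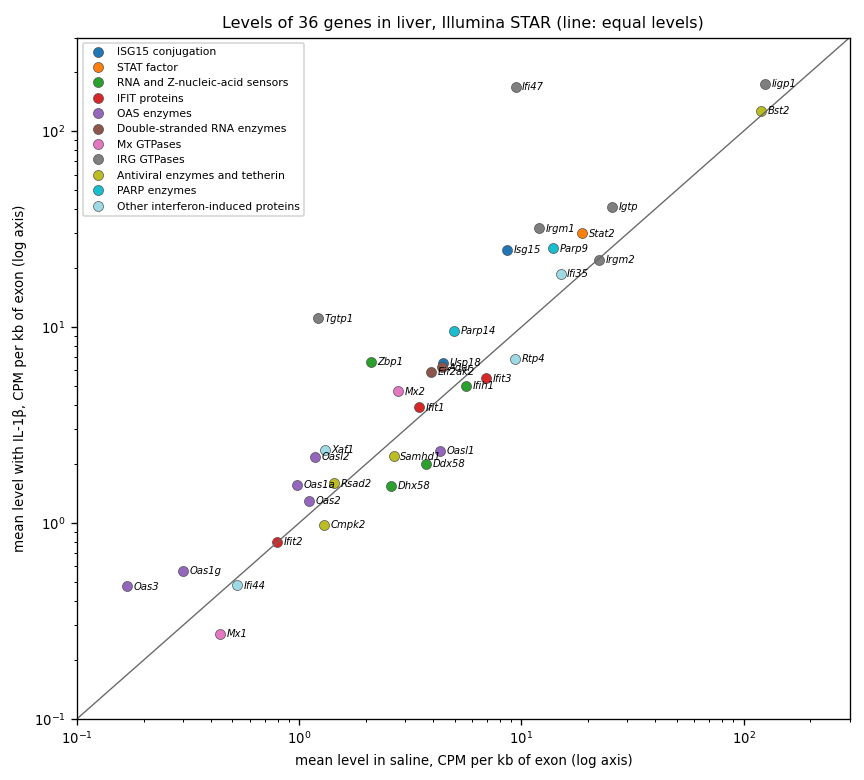
Mean level of each member in the main table, with IL-1β (vertical) against saline (horizontal). Levels are in CPM per kb of merged exon on log axes, coloured by role, with the line of equal levels. Ifi47 (9.4 to 169) and Tgtp1 (1.21 to 11.1) lie farthest above the line, and most IFIT and antiviral enzyme genes lie on or near it.

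By scaled CPM in the main table, every IL-1β mouse lay above every saline mouse in 11 members (Isg15, Stat2, Zbp1, Oasl2, Eif2ak2, Adar, Irgm1, Tgtp1, Ifi47, Parp9 and Parp14), against 17.6% of all tested genes. Eif2ak2, Adar and Parp14 overlapped in the unscaled counts of that table, and also on Ion Torrent aligned with STAR. The reverse held for Ddx58 alone, against 16.2% of tested genes. With the study's own rank-sum test, 8 members were higher (13.8% of tested genes) and 2 were lower (24.3%), the latter being Ddx58 and Dhx58.

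In all 6 tables, the same 16 members were higher (Isg15, Stat2, Zbp1, Oas3, Oasl2, Eif2ak2, Adar, Mx2, Irgm1, Igtp, Iigp1, Tgtp1, Ifi47, Parp9, Parp14 and Xaf1) and the same 3 were lower (Ddx58, Dhx58 and Oasl1). A further 13 were called in none, and 4 were called in some (Oas1a, Oas1g, Samhd1 and Ifi35). In the Illumina data, 19 members were higher and 3 lower with GSNAP, against 23.7% and 23.9% of tested genes. With STAR plus Bowtie2 the counts were 17 and 4, against 22.9% and 24.4%. The Ion Torrent data gave 17 higher and 4 lower with STAR, against 20.3% and 21.8%, and 16 and 4 with GSNAP, against 22.5% and 23.9%. With STAR plus Bowtie2 they gave 16 and 4, against 22.8% and 24.0%.

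The difference between platforms was tested with a platform-by-treatment term, with the mouse as a block. No member passed at an adjusted p below 0.05 with STAR, GSNAP or STAR plus Bowtie2, where 0.00642%, 0.0642% and 0.0770% of all genes did. At an unadjusted p below 0.05 there were 4, 2 and 3 members, against 7.00%, 7.80% and 7.77% of all genes. Limma-voom with the same block also called 0 members with each aligner. The members at an unadjusted p below 0.05 were Irgm1, Irgm2, Iigp1 and Rtp4. Irgm2 had the lowest p of them with GSNAP, where its log2 fold change was -0.03 on Illumina and 0.22 on Ion Torrent (term 0.25 ± 0.08, adjusted p 0.578).

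Mice of one group differed together. Each mouse's log2 CPM was set against the mean of its own group for the 33 members with at least 20 reads on average. UNT_9574 lay above its group in 31 of the 33, with a median deviation of 0.34. UNT_9580 lay below in 30, with a median of -0.31. In the IL-1β group, ILB_9579 and ILB_9582 lay above in 30 each (medians 0.31 and 0.34), and ILB_9578 lay below in 28 (median -0.34).

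The same mice stood out on Ion Torrent, where the medians were 0.36 for UNT_9574, -0.19 for UNT_9580, 0.26 for ILB_9579, 0.37 for ILB_9582 and -0.26 for ILB_9578. Both platforms read the same RNA, so this repeats the measurement and not the mouse. Genes without a call took part: Ifit1, Rsad2 and Irgm2, none of them called, were all highest among the treated mice in ILB_9579 and ILB_9582. In the main table, the summed level of 8 Kupffer cell and macrophage markers was 73.9 and 107 CPM in those 2 mice. It was 166 CPM in ILB_9578, 106 CPM in ILB_9583 and 172 CPM in ILB_9577. In the controls it was 232 CPM in UNT_9574 and 133 to 168 CPM in the others. The summed neutrophil markers were at 59 and 113 CPM in ILB_9579 and ILB_9582, 127 CPM in ILB_9578, and 77.2 and 78.4 CPM in ILB_9583 and ILB_9577. In the controls the neutrophil sum was 7.58 CPM in UNT_9574 and 3.35 to 5.67 CPM in the others. In that table UNT_9574 thus had the highest of both sums in its group, and UNT_9580 had the lowest of neither. On Ion Torrent aligned with STAR, UNT_9574 again had the highest of both (247 and 7.32 CPM). There UNT_9580 had the lowest neutrophil sum of the controls (2.69 CPM), but not the lowest Kupffer cell and macrophage sum. In the treated mice neither sum followed the order of the members' deviations. The part of these cells in the spread was not tested.

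**Figure D5:**
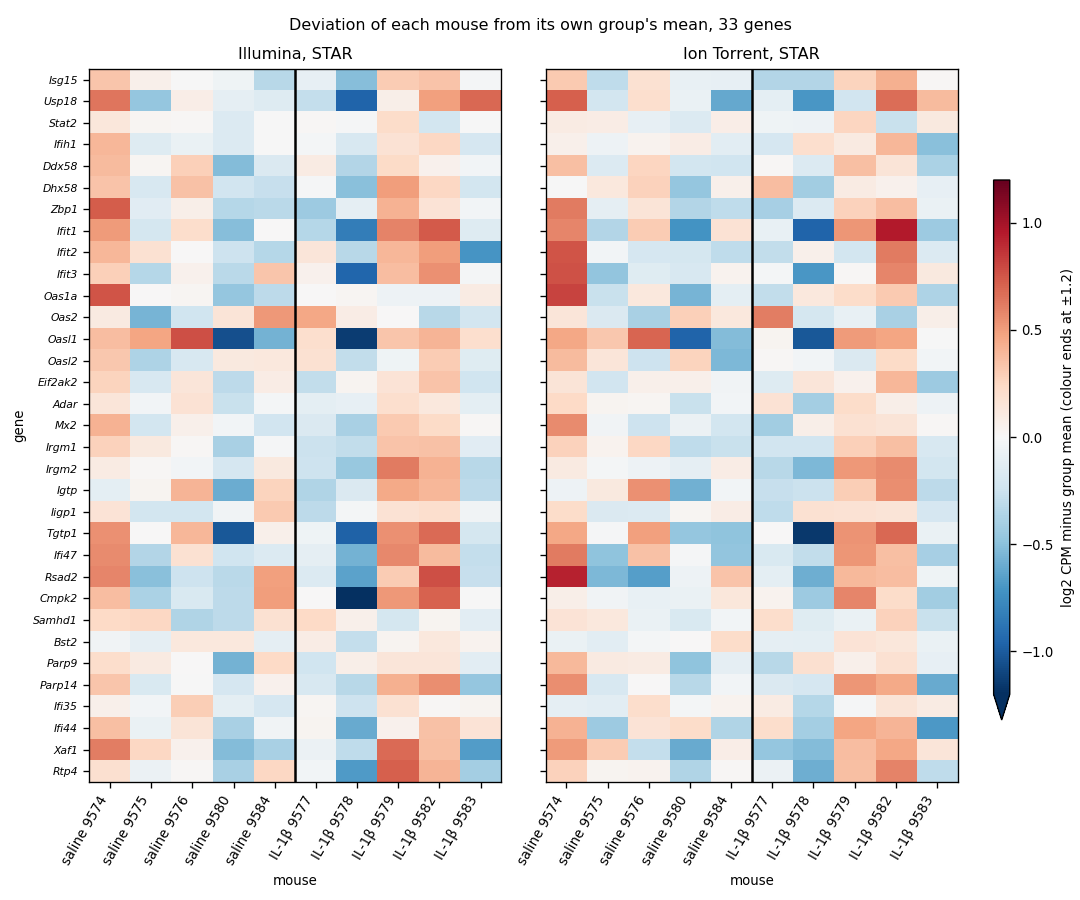
Deviation of each mouse's log2 CPM from the mean of its own group for 33 members, on Illumina (left) and Ion Torrent (right), both aligned with STAR; red is above and blue is below the group mean. The columns of UNT_9574, ILB_9579 and ILB_9582 are mostly red and those of UNT_9580 and ILB_9578 mostly blue on both platforms.

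Interferon-γ and the type I interferons listed were at or near 0 reads, and the listed type III genes (Ifnl2 and Ifnl3) matched no symbol and were not analysed here. Of the 16 matched genes, 14 had 0 reads in all 60 columns, Ifnb1 and every Ifna gene listed among them. In the main table, 0 reads over the 5 IL-1β libraries allow up to 3, which is 0.0565 CPM over the group. Ifng had 1 read with IL-1β and 2 with saline in the main table, and no more than 4 in any column of the 6 tables, which realign the same libraries. Ifne had 1 read in 1 saline column. Whole liver at 4 hours does not show what was made earlier or elsewhere.

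The 5 receptor genes matched by symbol were tested, and Ifnlr1, the type III receptor's own chain, was not analysed here. Ifnar1 was higher (57.9 ± 6.32 against 40 ± 3.56 CPM, log2 fold change 0.53 ± 0.10, adjusted p 0.000581), and so was Ifngr2 (27.8 ± 4.39 against 14.5 ± 2.24 CPM, 0.94 ± 0.14, adjusted p 4.8e-05). Their partners were not called: Ifnar2 had a log2 fold change of -0.07 ± 0.10 (adjusted p 0.645) and Ifngr1 one of 0.04 ± 0.11 (adjusted p 0.788). Il10rb, the shared chain of the type III receptor, was at 0.04 ± 0.17 (adjusted p 0.909).

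Of 15 genes of the JAK-STAT and IRF signal chain, 4 were higher and 4 were lower, both close to the shares of all tested genes (22.7% and 22.9%). Socs3, a feedback inhibitor of cytokine receptors, was highest (log2 fold change 2.30 ± 0.38), and Irf8, a factor of myeloid cells, was higher (0.74 ± 0.18). Irf1, an activator of interferon-γ targets, fell from 41.5 ± 7.1 to 19.1 ± 4.97 CPM (-1.12 ± 0.17, adjusted p 7.27e-05). Irf2 (-0.68 ± 0.11), Irf5 (-0.67 ± 0.20) and the phosphatase gene Ptpn6 (-0.68 ± 0.13) were also lower.

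Of 10 tested genes that link nucleic acid sensors to the interferon genes, 6 were higher and 1 was lower. The shares of all tested genes were 22.7% and 22.9%. In each of the other 5 tables, 5 of the 10 were higher and 1 was lower. Ikbke, the kinase IKKε, moved from 23.8 ± 7.27 to 235 ± 46.9 CPM (3.30 ± 0.20, adjusted p 1.08e-08). Higher were also the adaptors Myd88 (1.77 ± 0.13) and Ticam1 (1.39 ± 0.12), Tmem173, encoding STING (1.07 ± 0.28), and the kinase Tbk1 (0.89 ± 0.12). Tlr3, the endosomal sensor of double-stranded RNA, was lower (-1.64 ± 0.17, adjusted p 1.68e-06).

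Among 43 tested other interferon-induced genes, 19 were higher and 6 were lower, with a median log2 fold change of 0.20, against 22.7% and 22.9% of all tested genes and a median of 0. The largest changes were those of Slfn4 (4.91 ± 0.42) and Slfn1 (3.05 ± 0.37), of the Schlafen family. The exonuclease gene Isg20 followed (2.54 ± 0.22), then Ifitm2, which keeps viruses from fusing (1.64 ± 0.09), the ligase gene Herc6, which attaches ISG15 in mice (1.60 ± 0.18), and Slfn2 (1.54 ± 0.22).

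The 8 hepatocyte markers, 2 of them higher and 3 lower, summed to 77334 to 88158 CPM with IL-1β and 93805 to 116848 CPM with saline. All 7 tested neutrophil markers were higher, and their summed level was 59 to 127 CPM with IL-1β against 3.35 to 7.58 CPM with saline, with Ly6g at 6 and 0 reads. Of 8 Kupffer cell and macrophage markers, 1 was higher and 3 were lower (73.9 to 172 against 133 to 232 CPM). The 6 tested lymphocyte markers, 2 of them lower, summed to 1.21 to 2.98 CPM with IL-1β and 2.93 to 4.99 CPM with saline, and the natural killer markers Klrb1c, Nkg7 and Ncr1 had 29, 15 and 1 reads with IL-1β and 28, 16 and 2 with saline. Plasmacytoid dendritic cell markers were near 0, with Siglech at 31 reads in both groups, Ccr9 at 10 with IL-1β and 8 with saline, and Pacsin1 at 1 and 4. Of 4 monocyte markers 1 was higher and 1 lower, of 6 endothelial markers 2 and 2, of 4 stellate cell markers 0 and 3, and of 4 cholangiocyte markers 2 and 0. Of all tested genes 22.7% were higher and 22.9% lower. The part of these cells in the values of the interferon-stimulated genes was not tested.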

How the data were processed

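RNA-Seq libraries of 10 mice (5 per group, by the treatment label) were analysed on both platforms. The deposited values are whole-number counts per gene. The authors aligned reads to mm9 with GSNAP 2015-12-31, STAR 2.5.1b, or STAR followed by Bowtie2 2.2.9 (submitters' processing notes), removed rRNA and mitochondrial reads, and used PORT to draw equal numbers of gene-mapping reads from the libraries within a table. Re-sampling equalizes depth but not composition. Whether counts are read pairs, and the strand setting, are not given in the sources used here.

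The 15578 genes reaching 5 reads in 5 libraries of at least 1 table were tested within each table with edgeR 4.0.16 (R 4.3.3), quasi-likelihood, TMM and Benjamini-Hochberg adjustment. SEs are the log2 fold change over the root of its F. Other settings were RLE scaling or none, other filters, DESeq2 1.42.0, limma-voom (limma 3.58.1), the rank-sum test of the study, a size threshold, and leaving out each mouse. The platform-by-treatment term used the mouse as a block. Both libraries of a mouse come from the same RNA, and their deviations correlated at 0.198 to 0.718. Fits were tested on simulated data.

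The members and lists were chosen with earlier results of these data known. All members are named by role. Of the other lists the text names ligands with a read, all receptors, and up to 6 called genes with the largest change. Listed symbols absent from the tables were left out. Gene models of the counts are Ensembl v67, and positions are from GENCODE M1 (NCBIM37), promoters from RefSeq, identities from BLAST+ 2.17.0. Limits for 0 reads cover counting error only.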

Additional observations from a re-analysis of the deposited data

Results flagged for a closer look

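In 4 of the 72 groups of 5 mice (36 genes in 2 groups), 1 mouse lay farther from the rest than Dixon's 95% limit of 0.71 for the gap over the range. Chance flags about 1 group in 20. Ifih1 was at 40.5 CPM in UNT_9574, where the other saline mice had 27.3 to 30.6. Oas3 was at 1.83 CPM in the same mouse, where the others had 0.515 to 0.743. Oasl1 was at 2.56 CPM in ILB_9578, against 6.54 to 7.54 in the other treated mice. Bst2 was at 79.4 CPM in ILB_9578, against 98.8 to 105. Both mice also stood apart in the same direction over most members.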

How the results depend on the processing

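With the rank-sum test of the study, 8 members were called higher in the Illumina tables aligned with STAR and with GSNAP, 9 with STAR plus Bowtie2, 8 in the Ion Torrent tables aligned with STAR and with GSNAP, and 12 with STAR plus Bowtie2, against 11.8% to 14.7% of all genes. It called 2 lower in both GSNAP tables and in the main table and 3 in the other 3, against 23.9% to 25.7%. Asking for an absolute log2 fold change above 1 left 6 higher members in each Illumina table, 7 in each Ion Torrent table, and 0 lower in all 6, against 7.41% to 8.06% of all genes higher and 8.88% to 9.43% lower. Without TMM scaling, 5 members were lower in the main table. Genes averaging 10 or more reads had a median of -0.12 there without TMM and 0.0046 with it on the log2 scale. The share of all genes lower without TMM is not given here, so the 5 cannot be set against it. RLE scaling, other filters and DESeq2 kept the direction and side of the threshold of all 36 in the main table. Calls were lost for 3 members without TMM (Oas1a, Oas1g and Ifi35), 2 with limma-voom (Oas1g and Oasl1) and 12 with the rank-sum test, and were gained for Mx1 and Samhd1 without TMM. Log2 fold changes near 0 turned sign: Ifit1 was -0.014 with the rank-sum test, Ifit2 was -0.13 without TMM, -0.037 with limma-voom and -0.18 with the rank-sum test, Rsad2 was -0.033 with the rank-sum test, and Bst2 was -0.042 without TMM and -0.091 with the rank-sum test.

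Leaving out each mouse in turn gave 16 to 20 higher and 2 to 4 lower members in the main table. In both tables aligned with STAR plus Bowtie2 it gave 2 to 5 lower. Shares of all genes in these fits are not given here. With all 10 mice of the main table they were 22.7% higher and 22.9% lower. Ifit1 ran from -0.044 to 0.34, Ifit2 from -0.14 to 0.15, Irgm2 from -0.20 to 0.084 and Rsad2 from -0.10 to 0.30. Calls were lost for Ifi35 (without any 1 of 8 mice, adjusted p up to 0.0966), Oas1g (6 mice, up to 0.0992), Oasl1 (6 mice, up to 0.115) and Oas1a (4 mice, up to 0.0628). Calls appeared for Usp18 without ILB_9578 or UNT_9574 (adjusted p 0.017 and 0.0369), Mx1 without UNT_9580 (0.0343), Rtp4 without ILB_9579 (0.0189) and Samhd1 without UNT_9576 (0.0463). The platform-by-treatment term without the replicate block called 0 members with each aligner, as with it, the pairing being that of 1 RNA per mouse. Members with few reads, a single dose and time and whole tissue limit these values, and depth was not varied.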
